A study of Mus musculus with 6 samples.

Results

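Acyl-CoA thioesterases split a fatty acyl-CoA into a free fatty acid and coenzyme A. They lie in the cytosol, the mitochondria and the peroxisomes, the places where acyl-CoA is also made or burned, so each compartment has its own enzymes. Acot1 to Acot6 are near-identical copies of one ancestral gene (type I), while Acot7, Acot8, Acot9, Acot11, Acot12 and Acot13 (type II) are built on another fold. The transcripts of 10 of these genes, of 19324 named on the array, were read in mouse fat cells, grouped by compartment: Acot2, Acot9 and Acot13 as mitochondrial, Acot3, Acot4 and Acot8 as peroxisomal, and Acot1, Acot7, Acot11 and Acot12 as cytosolic. Acot7, Acot11 and Acot13 have been placed in more than 1 compartment in the literature, so this grouping is by their usual description.

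The cells were inguinal fat cells of mice, differentiated in culture. Cells exposed to 1 uM rosiglitazone for 4 days made up 3 arrays, a treatment whose effect the labels call beiging, and Control cells, labelled non-activated, the other 3. Rosiglitazone is a thiazolidinedione that activates PPARγ, the nuclear receptor that drives fat cell differentiation. The comparison asks which transcripts differ when the drug is present. Strain, sex, age and passage of the cells are not given in the sources used here, and no label names separate cultures for the 3 arrays of a group, so each p-value reflects the spread between these arrays alone, which may be technical.

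Each Affymetrix probe set gives an intensity on a linear scale. The members were found by the gene symbol of the array's annotation, which gave 17 of 45037 probe sets. Of these, 15 carried 1 member's symbol, and 2 carried several symbols: one reads Acot2 and Acot1 together, the other Acot9 and its retrogene Acot10. Each gene was represented by its brightest single-symbol probe set. Because probe sets differ in how well they bind, intensities are compared between groups and not between genes. All 10 genes had a probe set, and 9 passed the filter on low values, a mean intensity over 27.3, which the dimmest 40% of probe sets did not reach. Acot12 fell just short at 27.1, and the dimmest member that passed was Acot3 at 45.4.

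Over all 45037 probe sets the arrays were alike in level, with median intensities of 44.5 to 46.7. On each array 28.0% to 29.0% of values lay under the floor of 16. Over the brighter sets tested they were less alike, since centring each array on its median raised the log2 changes by 0.12. The fat cell markers Adipoq and Fabp4 were near the top of the range in both groups (means of 13158 and 17148 with rosiglitazone, and 12829 and 17647 in Control cells) and were not called. Of the 5 fat cell markers tested, Cidec rose by 0.28, Pparg fell by 0.36 and Lipe fell by 0.23 on the log2 scale. Ucp1, the uncoupling protein of heat-producing fat, averaged 1495 with rosiglitazone and 5.38 in Control cells. Markers of other cells also moved, where 23.6% of all genes were called higher and 35.8% lower. Of 11 macrophage markers tested 10 fell, and the 12 with a probe set summed to 4171.5 to 4545 with rosiglitazone, against 12277 to 13424 in Control cells. Stromal progenitor markers had 3 falls among 4 tested, and smooth muscle markers 4 falls and 1 rise among 5. One of those smooth muscle falls, Cnn1, averaged 19.96 with rosiglitazone, under the filter, and 59.0 in Control cells. It was tested only because of its Control values. Summed intensities were 9269 to 9808 with rosiglitazone, against 17387 to 18027 in Control cells, for 5 progenitor markers, and 4585 to 4697, against 7946 to 8381, for the 5 smooth muscle markers. Most of the progenitor sum was Col3a1, with means of 6939 with rosiglitazone and 11528 in Control cells. The progenitor falls were those of Pdgfra, Col1a1 and Col3a1. Pi16, at a log2 change of −0.16, was not called, and Dpp4 lay under the floor on all 6 arrays. Of 6 endothelial markers 3 were tested, 2 of which fell and 1 rose, and the sums were 221 to 230.2 with rosiglitazone, against 422 to 431 in Control cells; the defining genes Kdr, Pecam1 and Cdh5 stayed under the filter. The smooth muscle rise was not called without Rosiglitazone replicate 1 or 2 or Control replicate 1 or 2, and the endothelial rise without Rosiglitazone replicate 2 or 3 or Control replicate 2. The part of these cells in the thioesterase values was not tested. In such bulk RNA, more cells of a type and more RNA per cell cannot be told apart.

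Of the 9 thioesterase genes tested, 5 were higher with rosiglitazone and 0 were lower. They were the mitochondrial Acot2 and Acot13, the peroxisomal Acot4 and Acot8, and the cytosolic Acot7. The first 4 rose between 1.93-fold and 2.79-fold and Acot7 rose 1.23-fold. The other 4, Acot1, Acot3, Acot9 and Acot11, did not pass the test. A gene was called at an adjusted p under 0.05 (limma, Benjamini-Hochberg over all 12952 genes tested). By that rule 23.6% of all genes were higher (3057) and 35.8% lower (4635). Across the array 1.51% of genes were called higher by 2-fold or more, and 3 of the 9 thioesterase genes were. For 7 of the 9 genes all 3 rosiglitazone arrays lay above all 3 Control arrays, where 25.7% of all genes did so. The split of all calls moved with the scaling of the arrays, to 4558 higher and 3285 lower when each array was centred on its median, a change that raised the median of all genes by 0.12 on the log2 scale, from −0.05. On that scale 8 of the 9 genes were called higher, Acot1 being the exception.

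**Figure D1:**
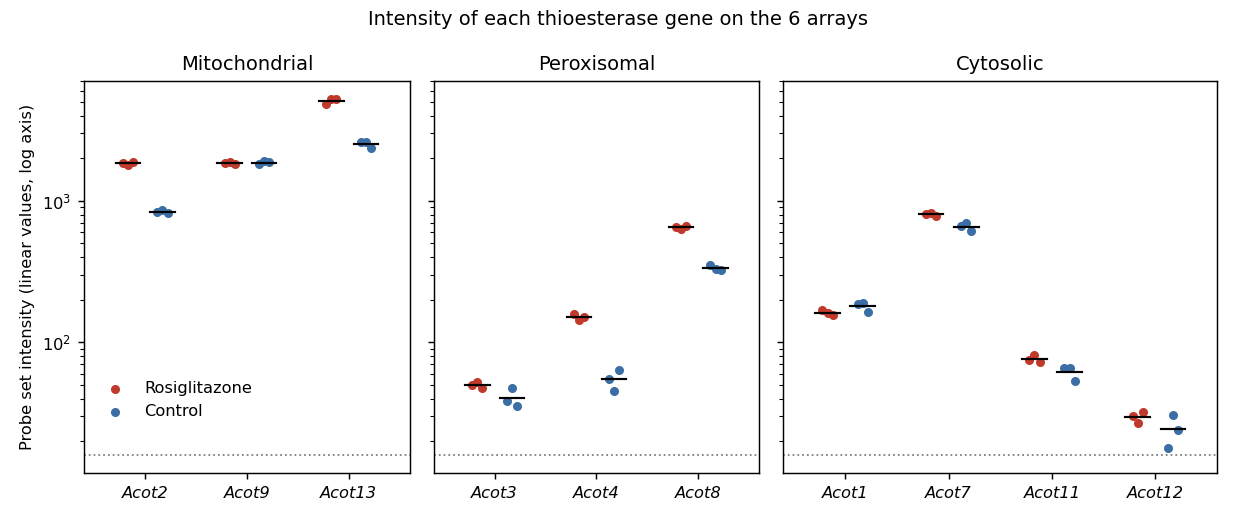
Intensity of the brightest single-symbol probe set of each thioesterase gene on the 3 rosiglitazone arrays (red, left of each pair) and the 3 Control arrays (blue), on a log axis, with a bar at each mean and a dotted line at the floor of 16. Acot2, Acot13, Acot4 and Acot8 separate widely, while the arrays of Acot9 and Acot1 overlap.

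The mitochondrial enzymes were led by Acot2, which hydrolyses long-chain acyl-CoA in the matrix. Its brightest probe set read 1845, 1802 and 1893 on the rosiglitazone arrays, against 836, 860.0 and 820.2 on the Control arrays. The groups were far apart, with a log2 change of 1.14 (SE 0.04, limma adjusted p = 3.55e-13). A dimmer probe set of Acot2 read 374, 324 and 312 with rosiglitazone, against 133, 141 and 144 in Control cells. It too had no overlap, with a log2 change of 1.27 (SE 0.08, limma adjusted p = 1.73e-09 over all probe sets).

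Acot13, also known as Them2, is a small thioesterase found at the mitochondria and in the cytosol of oxidative tissues, where it works with the lipid transfer protein PC-TP. It read 4818, 5228 and 5248 with rosiglitazone, against 2599, 2583 and 2357 in Control cells. The lowest treated array was well above the highest Control array, and the log2 change was 1.02 (SE 0.04, limma adjusted p = 2.8e-12).

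Acot9, a mitochondrial enzyme that acts on short- and long-chain acyl-CoA, did not follow them. It read 1858, 1864 and 1825 with rosiglitazone, against 1806, 1912 and 1870.5 in Control cells, and the groups overlapped. Its log2 change was −0.01 (95% interval −0.08 to 0.06, limma adjusted p = 0.82), and it was 0.11 and called higher after median centring. The probe set shared with Acot10 read 2221, 2114 and 2143 with rosiglitazone, against 2110.3, 2114 and 2258 in Control cells. That log2 change of −0.00 (95% interval −0.08 to 0.08) also turned to 0.12 and a call after median centring.

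Among the peroxisomal enzymes, Acot4, which prefers succinyl-CoA and the dicarboxylic acyl-CoAs in mice, changed most of all 10 genes. Its brighter probe set read 159, 145 and 150.2 with rosiglitazone, against 55.0, 45.3 and 63.9 in Control cells. The log2 change was 1.48 (SE 0.13, limma adjusted p = 3.15e-08), larger than that of all but 0.579% of the genes tested. A dimmer probe set gave 79.2, 68.5 and 65.99 with rosiglitazone, against 22.4, 29.85 and 26.4 in Control cells, a log2 change of 1.45 (SE 0.17). The mean of this set over its Control arrays, 26.2, was under the filter, so it was tested only because of its rosiglitazone values.

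Acot8, a peroxisomal thioesterase of broad specificity that also hydrolyses bile acid CoA esters, read 654, 633 and 658 with rosiglitazone. The Control arrays read 353, 331 and 326. The groups did not overlap, with a log2 change of 0.95 (SE 0.05, limma adjusted p = 1.19e-10).

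Acot3, a peroxisomal long-chain thioesterase, was dim, at 50.3, 52.4 and 47.5 with rosiglitazone, against 38.9, 47.4 and 35.7 in Control cells. The lowest treated array was barely above the highest Control array, and the log2 change of 0.31 did not pass the test (95% interval −0.05 to 0.67, limma adjusted p = 0.132). After median centring it was 0.43 and called. The single probe set of Acot3 carries a suffix that marks sets able to bind more than 1 transcript, so other members of the type I cluster may add to it.

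Of the cytosolic enzymes, Acot7, the main cytosolic thioesterase of brain, read 804, 821 and 784 with rosiglitazone, against 660.1, 693 and 609 in Control cells. The groups were separate and the log2 change was 0.30 (SE 0.05, limma adjusted p = 8.09e-05). Against a change of 1.5-fold, in place of no change, it was not called.

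Acot1, the cytosolic twin of Acot2, read 170.2, 160.1 and 155 with rosiglitazone, against 187, 188 and 164 in Control cells. One treated array lay above the lowest Control array, so the groups overlapped. The log2 change was −0.15 (95% interval −0.32 to 0.02, limma adjusted p = 0.123). Without Control replicate 3 it was −0.22 and called lower (limma adjusted p = 0.0359), and with array weights it was −0.18 and called lower. Over the 20 other settings its adjusted p ranged from 4.01e-07, where the probe set shared with Acot2 stood for it, to 1 in the test against a 1.5-fold change.

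Acot11, also called BFIT for its induction in brown fat by cold, read 74.7, 80.9 and 72.9 with rosiglitazone, against 66.4, 65.7 and 53.55 in Control cells. The groups did not overlap, but the log2 change of 0.31 missed the threshold (95% interval 0.03 to 0.58, limma adjusted p = 0.0566). It was called under 6 of the 20 other settings, among them median centring and quantile normalization. A second probe set of Acot11 stood at 1 on all 6 arrays.

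Acot12, an acetyl-CoA thioesterase of liver, was at the edge of detection. Its brightest probe set read 30.1, 27.1 and 32.4 with rosiglitazone, against 18.0, 30.6 and 24.2 in Control cells, and its other 2 lay between 1.73 and 13.17 on all 6 arrays. With no filter on low values its log2 change was 0.33 (limma adjusted p = 0.34 over all genes).

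By compartment, 2 of 3 mitochondrial, 2 of 3 peroxisomal and 1 of 3 cytosolic genes tested were called higher. Of all genes tested 23.6% were called higher, and the cytosolic count was near that share. The median log2 changes were 1.02, 0.95 and 0.30, and that of all genes tested was −0.05. The mitochondrial and cytosolic medians are the values of Acot13 and Acot7, both placed in more than 1 compartment in the literature. Each compartment held at least 1 gene that did not pass the test. The log2 changes ranged from −0.01 to 1.14 for the mitochondrial, 0.31 to 1.48 for the peroxisomal and −0.15 to 0.31 for the cytosolic genes. With 3 genes tested in each, no test of the compartments was made.

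**Figure D2:**
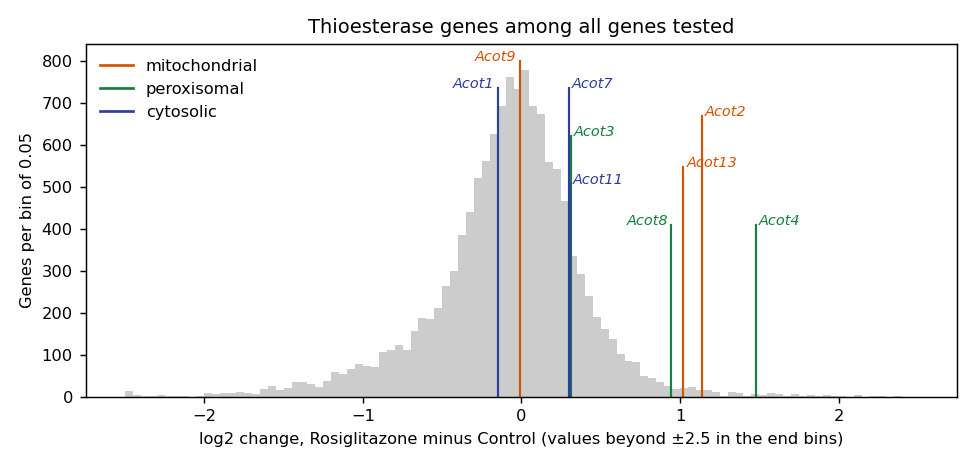
Histogram of the log2 change of all 12952 genes tested (grey, bins of 0.05, values beyond 2.5 in the end bins), with a line at each thioesterase gene, coloured by compartment; line height has no meaning. Acot4, Acot2, Acot13 and Acot8 lie in the upper tail at 0.95 to 1.48, and Acot1 and Acot9 lie near the middle.

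Acot2, Acot1, Acot4, Acot3, Acot5 and Acot6 stand side by side in that order on mouse chromosome 12 (assembly GRCm38.p6). No other protein-coding gene lies between them, and their calls were not alike along the row. Acot2 rose, its neighbour Acot1 was not called, Acot4 rose, Acot3 was not called, and the next 2, which are no members of the set, were higher with rosiglitazone. These near-identical transcripts can bind the same probe set, and the probe sequences were not used here. Acot6, a peroxisomal enzyme of branched-chain acyl-CoA, averaged 309 ± 11.9 with rosiglitazone and 137 ± 2.86 in Control cells (SD, n = 3 each) by its brighter probe set, a log2 change of 1.18 (SE 0.07, limma adjusted p = 2.41e-10). A dimmer probe set of Acot6, at a log2 change of 0.29, was not called (limma adjusted p = 0.115 over all probe sets). Acot5, a peroxisomal enzyme of medium-chain acyl-CoA, read 39.7, 35.4 and 53.8 with rosiglitazone, against 6.43, 7.23 and 7.30 in Control cells. All 3 of those Control values are under the floor, so Acot5 was at least 2.64-fold higher; its mean was below the filter, and it was singled out after its values were seen.

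The probe set shared by Acot2 and Acot1 read 246, 231 and 226 with rosiglitazone, against 139.8, 144 and 152 in Control cells. Its log2 change of 0.69 (SE 0.07, limma adjusted p = 1.04e-06 over all probe sets) lay between those of the sets read for Acot2 alone and for Acot1 alone. It cannot be assigned to either gene. If it stood for Acot1, that gene would be called higher by 0.69 in place of the uncalled −0.15. Counted by probe set, 8 of the 13 thioesterase sets tested were called higher and 0 lower, the dimmer Acot4 set being one of the 8, where 21.2% of all 27022 probe sets tested were higher and 30.7% lower.

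**Figure D3:**
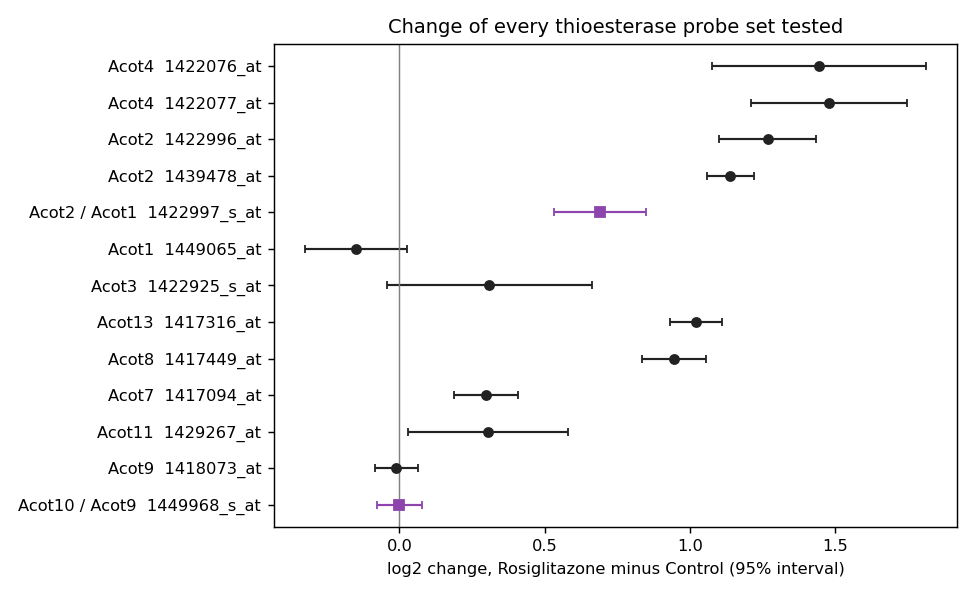
The log2 change (Rosiglitazone minus Control) with its 95% interval for the 13 thioesterase probe sets tested; circles carry 1 gene symbol and purple squares several. The set shared by Acot2 and Acot1, at 0.69, lies between the sets of Acot2 (1.14 and 1.27) and that of Acot1 (−0.15).

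The change of one copy was also set against that of another within each array. The log2 difference Acot2 minus Acot1 averaged 3.51 ± 0.09 with rosiglitazone and 2.22 ± 0.09 in Control cells (SD, n = 3 each). That difference was higher by 1.29 with rosiglitazone. Acot4 minus Acot1 averaged −0.10 ± 0.05 with rosiglitazone and −1.73 ± 0.35 in Control cells, so the signed difference was higher by 1.63. Acot4 minus Acot3 averaged 1.60 ± 0.11 with rosiglitazone and 0.43 ± 0.46 in Control cells, higher by 1.17. Acot4 minus Acot2 averaged −3.61 ± 0.06 with rosiglitazone and −3.95 ± 0.28 in Control cells, higher by 0.34, with the rosiglitazone range (−3.66 to −3.54) close to 1 Control array (−3.68). In all 4 pairs the groups did not overlap. The share of other gene pairs that separate in this way was not computed. These pairs have genes in common and were chosen with earlier results known, so no conclusion is drawn from the count. The exact permutation test, two-sided, gave p = 0.1 for each pair and 0.1 after adjustment over the 4, which is the smallest p that 3 against 3 arrays allow.

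The stretches of 250 bases before the annotated starts of Acot4, Acot2 and Acot1 are printed. Acot4 and Acot2 were called higher and their neighbour Acot1 was not, which does not show that their responses differ. PPARγ binds DNA with RXR at a direct repeat of AGGTCA spaced by 1 base. Capitals mark a match to a relaxed form of that repeat, NGGNCANAGGNCA, searched on both strands. The sequences are those of RefSeq, build GRCm38.p6, plus strand, from chr12:84038129-84038378 for Acot4, chr12:83987611-83987860 for Acot2 and chr12:84009252-84009501 for Acot1.
Acot4: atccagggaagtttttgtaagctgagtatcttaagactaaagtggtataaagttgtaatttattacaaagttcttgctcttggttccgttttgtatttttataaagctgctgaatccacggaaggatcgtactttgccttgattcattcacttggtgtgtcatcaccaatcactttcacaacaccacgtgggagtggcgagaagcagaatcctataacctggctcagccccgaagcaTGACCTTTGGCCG
Acot2: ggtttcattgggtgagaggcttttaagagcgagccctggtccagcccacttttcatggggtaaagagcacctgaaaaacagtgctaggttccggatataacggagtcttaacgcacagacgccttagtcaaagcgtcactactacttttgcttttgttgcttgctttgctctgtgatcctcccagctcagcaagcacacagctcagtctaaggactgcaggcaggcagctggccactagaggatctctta
Acot1: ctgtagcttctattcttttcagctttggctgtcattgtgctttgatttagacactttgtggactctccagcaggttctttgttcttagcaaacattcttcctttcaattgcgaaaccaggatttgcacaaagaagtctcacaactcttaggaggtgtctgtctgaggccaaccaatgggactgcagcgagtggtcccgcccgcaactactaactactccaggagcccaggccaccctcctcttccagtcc

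The match in Acot4 covers the last 13 bases before the start, on the minus strand, and holds a single AGGTCA. Acot13 had no entry among the 32851 promoters and was not searched. Of the 9 members with an entry, Acot4 alone held the relaxed repeat, which 0.694% of all promoters held. Members were counted by gene and the shares by promoter, with 27025 genes behind the 32851 promoters. The strict repeat AGGTCANAGGTCA was in none of the 9 and in 0.0335% of all promoters. A single AGGTCA was in Acot4 and Acot12 and in 14% of all promoters. The relaxed form was chosen after the sequences were seen, and a match is a description of these letters and not of binding.

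By pattern over the 6 arrays, the genes closest to Acot4 were St3gal6, a sialyltransferase gene, Sh3bgrl2 and the calsyntenin gene Clstn3. Their Euclidean distances from it were 0.23, 0.27 and 0.27 on the log2 scale, each gene centred on its own mean. All 3 were called higher, at log2 changes of 1.49, 1.49 and 1.51. They were picked for closeness to Acot4 on these same arrays, so changes near that of Acot4 follow from the choice.

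Other thioesterases moved both ways. Of 11 genes tested outside the 10, 6 rose and 2 fell, where 23.6% of all genes were called higher and 35.8% lower, and the median log2 change was 0.25. Besides Acot6, the mitochondrial acyl-CoA thioesterase gene Them4 rose by 0.84 and Abhd10, a mitochondrial depalmitoylase gene, by 0.44. Ppt1, the lysosomal palmitoyl-protein thioesterase gene, fell by 0.31 on the log2 scale, and Lyplal1 fell by 0.33 (limma adjusted p = 8.9e-05 and 9.93e-06).

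Thioesterases release coenzyme A, and a list of 13 genes covered its synthesis, transport and breakdown. All 13 were tested, 6 rose and 5 fell, with a median of 0.09. Of all genes, 23.6% were called higher and 35.8% lower, and the share of the list that fell is near the latter. The falls were those of the pantothenate kinase genes Pank2 and Pank3 and of the breakdown genes Nudt7, Vnn1 and Vnn3. The number of falls was 1 after median centring, and 3 without Rosiglitazone replicate 1, Rosiglitazone replicate 2 or Control replicate 2. The 3 largest changes in the list were rises of a size close to those of Acot2 and Acot13. Slc25a42, which carries coenzyme A into mitochondria, rose by 1.05, Ppcs, which makes phosphopantothenoylcysteine, by 1.04, and Pank1, a kinase at the rate-limiting step of coenzyme A synthesis, by 1.02. The limma adjusted p of these 3 lay at or below 3.09e-10.

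The acyl-CoA synthetases run the opposite reaction. Of 18 in the list, 16 had a single-symbol probe set and 10 were tested. Among these 10 there were 3 rises and 6 falls, where 23.6% of all genes were called higher and 35.8% lower. Their median was −0.29, with 4 rises and 4 falls after median centring, and the untested synthetases are not covered by it. Acsm3, a medium-chain synthetase gene, fell by 1.61 and Acss2, the synthetase gene for acetate, fell by 1.06, while Slc27a4, a fatty acid transport protein gene with synthetase activity, rose by 0.72. Of 11 genes of acyl-CoA binding and carnitine transfer 9 rose and 0 fell, against the same shares of all genes, led by the carnitine-acylcarnitine carrier gene Slc25a20 at 0.90, the carnitine transporter gene Slc22a5 at 0.83 and Acbd4 at 0.53. The median was 0.30.

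In the oxidation pathways that share compartments with the thioesterases, 16 of 16 genes listed as mitochondrial rose, where 23.6% of all genes were called higher. Their median was 0.40 and their range 0.13 to 1.06. The lists go by gene, and where each enzyme lies was not measured. Hadha, Acaa2 and Eci2 were the largest, at 1.06, 1.03 and 0.91, close to Acot13 and Acot2. Of 15 genes listed as peroxisomal 11 rose and 2 fell, against the same share higher and 35.8% lower among all genes, with a median of 0.40. The thiolase gene Acaa1b rose by 3.93 and the bifunctional enzyme gene Ehhadh by 0.97, and Pecr, an enoyl-CoA reductase gene, fell by 0.97.

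**Figure D4:**
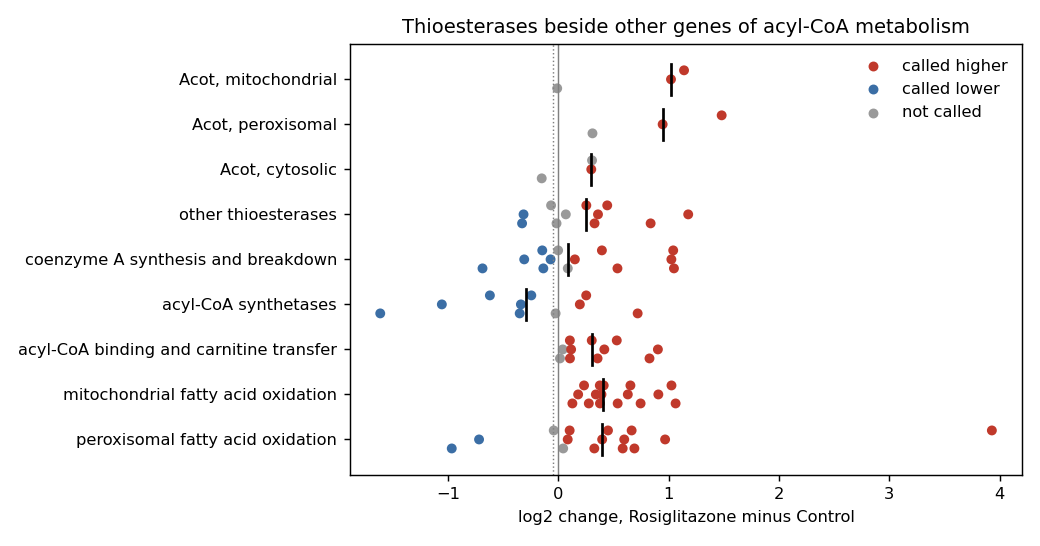
The log2 change (Rosiglitazone minus Control) of each gene tested, in the 3 compartments of thioesterases and in 6 other lists of acyl-CoA genes; red was called higher, blue lower and grey not called, black bars are list medians and the dotted line is the median of all genes. The medians run from −0.29 for the synthetases to 1.02 for the mitochondrial thioesterases, and the single point near 3.9 is Acaa1b.

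**Figure D5:**
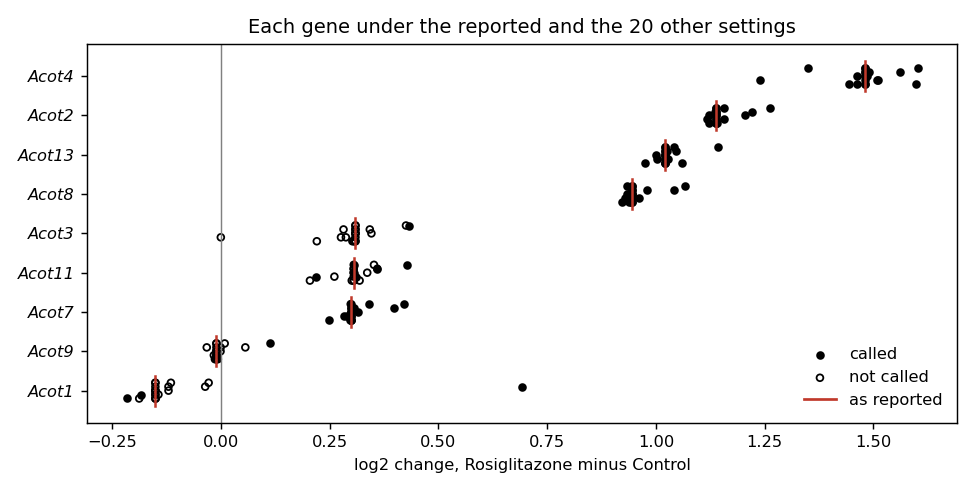
The log2 change of the 9 thioesterase genes tested, as reported (red line) and under the 20 other settings (points, filled where called). Acot4, Acot2, Acot13 and Acot8 stay above 0.9 throughout, Acot3 and Acot11 straddle the threshold, and the point of Acot1 at 0.69 uses the probe set shared with Acot2.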

How the data were processed

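Per the labels, total RNA purified with TRIzol and columns gave biotinylated cRNA for 6 Affymetrix mouse arrays, 1 per sample. The values are the authors' deposited probe set intensity on a linear scale for 45101 probe sets. The sources used here do not give the software or steps for background, summarization and scaling. Groups come from sample titles; the labels' treatment protocol names the drug for all 6 samples, the Control ones included. The platform annotation table gave gene names: 34945 of 45037 non-control probe sets had 1 symbol, 932 several and 9160 (20.3%) none, the last staying unnamed here.

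Values under 16 were set to 16 and log2 taken. The 64 control sets and the 40% of others with the lowest mean were left out. Rosiglitazone and Control arrays were compared in R 4.3.3 with limma 3.58.1 (two-sided, lmFit and trended eBayes, without covariates), and p-values were adjusted by Benjamini-Hochberg over 12952 genes or, by probe set, over 27022 sets. Intervals are 95%. The fit was tested on simulated data. The number of arrays limits the precision. Where all arrays of a group lie under the floor, a fold is given as a bound. Gene order came from a RefSeq table (GRCm38.p6), which is not the array's own annotation; all 10 members matched.

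The members, lists and tests were chosen with earlier results of these data known. Named genes are all 10 members and up to 3 called genes per other list with the largest absolute change. The 3 genes nearest in pattern to the most changed member are named too. Acot5, Ppt1, Lyplal1, Pi16, Dpp4, the 5 coenzyme A genes that fell and the fat cell markers with values were added after their values were seen. Alternatives were 2 other filters, median centring, quantile normalization, a floor of 64, log2(value + 1), the mean of probe sets, probe sets with several symbols, robust eBayes, eBayes without a trend, array weights, a replicate block, an adjusted p under 0.01, limma's treat against 1.5-fold and each array left out.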

Additional observations from a re-analysis of the deposited data

How the results depend on the processing

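The calls of Acot2, Acot4, Acot8 and Acot13 kept their direction and passed the threshold under all 20 alternatives, and that of Acot7 under all but a test against 1.5-fold (limma's treat). That test called 1220 genes in all, 325 higher and 895 lower. Of 180 values over the 9 genes tested, 166 stayed on the same side, 9 newly passed with the same sign, 1 no longer passed and 4 changed sign, of which 2 also passed (Acot1 with several symbols allowed and Acot9 after median centring). Median centring called 8 members higher in place of 5. Array weights called 1 member and 1 member probe set lower (Acot1), and leaving out each array in turn gave 0 to 1 lower. Acot9 turned to 0.056 after quantile normalization and 0.11 after median centring, and lay between −0.032 and 0.0089 with an array left out. The set shared with Acot10 turned to 0.063 and 0.12, and lay between −0.021 and 0.032. Acot1 turned to 0.69 where a set of several symbols could stand for it. The causes were not tested, except that this last choice reads another probe set. With no filter on low values, with the lowest 20% left out, after quantile normalization, with a floor of 64 or with the mean of probe sets, 3 genes of coenzyme A synthesis and breakdown were called lower in place of 5, with 2 at an adjusted p under 0.01 and 0 by treat. With the floor at 64 the dimmer Acot4 set was 0.15 and not called, since its 3 Control values are then at the floor, and Acot3 was 0. With the replicate number as a block 7693 genes and 5 members were called, in place of 7692 and 5. Deviations of same-numbered arrays correlated at −0.02, −0.02 and 0.06, and those of arrays with unlike numbers at −0.08 to 0.09. No pairing by number was seen, but 3 arrays a group cannot exclude one. Dim sets such as Acot3, Acot11 and Acot12 limit what 3 arrays a group can show.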
